A study of Mus musculus with 6 samples.

Results

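Replication-dependent histone genes encode the histones that package newly copied DNA. H2A, H2B, H3 and H4 form the core of the nucleosome, and H1 is the linker histone that binds the DNA between nucleosomes. These genes lie in clusters, mostly lack introns and are transcribed mainly in S phase. Their mRNAs end in a conserved stem-loop in place of a poly(A) tail. The stem-loop is bound by SLBP, and the U7 snRNP directs the cut behind it. Many of the genes are near-identical copies of each other, so a short read often matches several of them.

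The genes described here are those whose name begins with Hist1h, Hist2h, Hist3h or Hist4h and that the files place on the minus strand. There were 33 of them among 38483 listed genes, and among 19269 listed on the minus strand. Another 37 histone genes with such names lie on the plus strand, where every culture lists a value of 0, as for all 19214 plus-strand genes, so nothing is said of their expression. The 33 genes comprised 2 of type H1, 11 of H2A, 7 of H2B, 5 of H3 and 8 of H4. By position, 27 lay on chromosome 13, 4 on chromosome 3, 1 on chromosome 6 and 1 on chromosome 11 (mm10). No member was listed at 0 in all cultures.

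RNA was sequenced from mouse embryonic fibroblasts (MEFs), the mixed connective tissue cells that grow out of minced embryos. The study compared 3 cultures from wild type (WT) embryos with 3 from Nipbl+/- littermates of the CD1 strain, all at passage 3. The Nipbl+/- embryos carry a heterozygous knockout of Nipbl in every cell. NIPBL loads cohesin onto chromosomes, and its loss is the main cause of Cornelia de Lange syndrome, so the comparison asks how the transcriptome differs in a mouse model of that disease. Mid-gestation embryos of 1 pregnant mouse were used, without limbs, brain and internal organs. Whether the replicates of a group came from separate embryos is not given, so p-values measure only the spread between these cultures. Total RNA was depleted of rRNA and not selected for poly(A) tails.

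Nipbl itself stood at 128, 145 and 135 CPM (counts per library scaled to a common size) in WT replicates 1, 2 and 3 and at 101, 101 and 100.3 in the Nipbl+/- replicates. The groups did not overlap, and the log2 change was -0.43 (standard error 0.06, adjusted p = 0.0213). Total counts ranged from 20307454 to 25990783 per culture. All 4 fibroblast markers on the minus strand were detected, and summed to between 17413 and 21299 CPM. The 9 macrophage markers summed to between 57.6 and 75.3 CPM in WT and between 91.1 and 181 CPM in Nipbl+/- cultures, with none at 0. Of these, 6 lay higher in every Nipbl+/- than in every WT culture, against 12.0% of all tested genes, and 8 were higher at an unadjusted p under 0.05, against 8.98%. None passed the quasi-likelihood test of edgeR, and DESeq2 called 4 higher. Of the 4 fibroblast genes none passed, 2 were lower at an unadjusted p under 0.05, and DESeq2 called 1 lower. Of 4 tested endothelial, epithelial and muscle markers none passed by this test or by DESeq2. Of these only the epithelial gene Krt8 had an unadjusted p under 0.05, at 0.363, 0.445 and 0.325 CPM in WT and 0.586, 0.650 and 2.01 in Nipbl+/- cultures, without overlap. Neural and erythroid markers summed to at most 0.382 CPM. In 2 of 3 WT cultures and 1 of 3 Nipbl+/- cultures the Y-linked gene Ddx3y was counted more often than Xist, the noncoding RNA of the inactive X. Xist had 25, 1 and 7770 counts in WT replicates 1, 2 and 3 and 7544, 7882 and 6 in the Nipbl+/- replicates. The cultures of a group thus did not all come from the same embryo. Whether all 3 were from separate embryos remains unknown.

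Because near-identical copies share reads, the sequences were compared first. Each gene's transcript was cut into stretches of 50 bases, and each stretch was looked up in the 70 histone genes of either strand. No stretch occurred in genes of 2 different histone types. Within a type the copies overlapped to very different degrees. The first 60 coding bases of 5 H2A genes show this, with capitals where a gene differs from Hist1h2ah. They are printed in the direction of the gene, from the minus strand of mm10.

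Hist1h2ah, chr13:22035493-22035552: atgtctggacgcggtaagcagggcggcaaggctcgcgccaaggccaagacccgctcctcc
Hist1h2ag, chr13:22042868-22042927: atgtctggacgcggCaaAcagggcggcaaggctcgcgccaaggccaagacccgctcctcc
Hist1h2ae, chr13:23571049-23571108: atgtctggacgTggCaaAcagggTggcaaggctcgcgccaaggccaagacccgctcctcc
Hist1h2ak, chr13:21753768-21753827: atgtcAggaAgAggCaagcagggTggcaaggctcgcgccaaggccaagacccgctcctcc
Hist2h2aa2, chr3:96240191-96240250: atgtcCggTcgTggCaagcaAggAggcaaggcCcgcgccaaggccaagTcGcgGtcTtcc

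Hist1h2ag differed from Hist1h2ah at 2 of these bases, Hist1h2ae at 4, Hist1h2ak at 5 and Hist2h2aa2, on chromosome 3, at 11. In whole transcripts, 90.7% of the stretches of Hist1h2ah and 93.1% of those of Hist1h2aj also occurred in another histone gene. Every stretch of Hist2h2aa2 occurred in Hist2h2aa1, a plus-strand copy listed at 0. Hist1h2bq shared 97.3% with Hist1h2br, and Hist1h4n shared 83.2% with Hist1h4m, both again on the plus strand. How the counting treated reads that match several genes was not given, so the level of such a gene cannot be told apart from that of its copies, those on the plus strand included.

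The H4 genes spelled the same start of the protein with more changes, and here the capitals mark differences from Hist1h4k.

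Hist1h4k, chr13:21750446-21750505: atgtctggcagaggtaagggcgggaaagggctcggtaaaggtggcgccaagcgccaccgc
Hist1h4a, chr13:23761098-23761157: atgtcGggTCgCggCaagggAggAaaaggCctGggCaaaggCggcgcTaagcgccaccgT
Hist4h4, chr6:136804320-136804379: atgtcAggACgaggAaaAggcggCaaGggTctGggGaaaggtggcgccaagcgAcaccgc

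Hist1h4a differed from Hist1h4k at 13 of 60 bases and Hist4h4 at 11. Across whole transcripts 71.1% of the stretches of Hist1h4k also occurred in Hist1h4a, but none of those of Hist4h4 occurred in any other histone gene (0.0%). Hist1h1b likewise shared no stretch (0.0%), and Hist2h4 shared 1.0%. By exact stretches of this length, these 3 genes therefore share almost nothing with the histone genes compared. Sequences outside those genes were not searched. Genes that shared at least 20% of their stretches were joined, which gave 10 sequence groups. The groups were 11 H2A genes, 6 H2B genes, 6 H4 genes, 4 H3 genes, and 6 genes that stood alone, namely Hist1h1b, Hist1h1e, Hist2h3c2, Hist2h4, Hist4h4 and Hist3h2bb-ps.

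**Figure D1:**
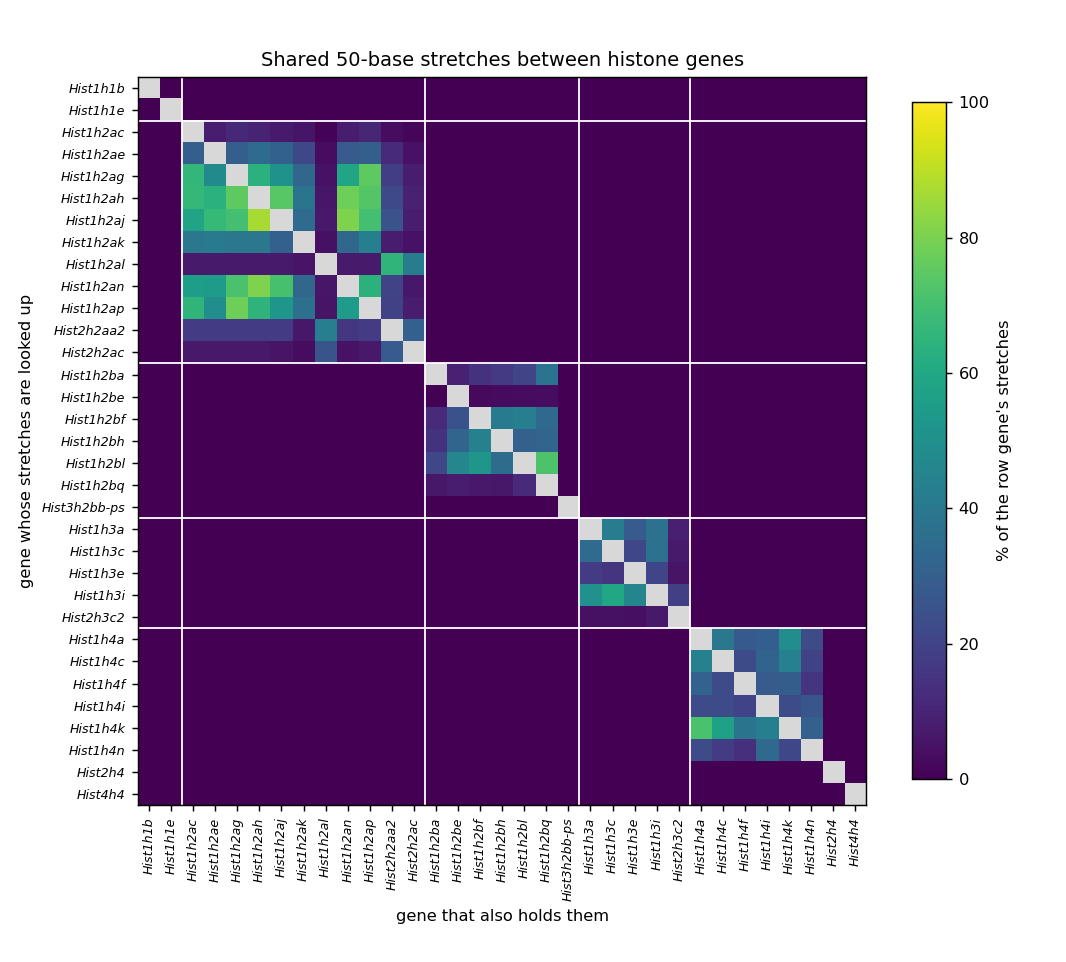
Percentage of the 50-base stretches of each histone gene (rows) that also occur in each other gene (columns), for the 33 genes on the minus strand, with the diagonal in grey and white lines between histone types. Stretches are shared within a type and never between types, and Hist1h1b, Hist1h1e, Hist2h4, Hist4h4 and Hist3h2bb-ps share none with another minus-strand gene.

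The annotated transcripts also carried the mark of this gene class. A stem-loop of 16 bases, a 6-base stem closed over a 4-base loop, was found in the GENCODE M21 transcripts of 20 of the 33 genes, between 21 and 58 bases after the stop codon. The most frequent form, in 11 genes of the types H1, H2A, H2B and H3, is shown first, and the most frequent form of the H4 genes second.

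Hist1h1e, chr13:23621782-23621797: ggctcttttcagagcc
Hist1h4f, chr13:23551291-23551306: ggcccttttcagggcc

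Each H4 gene with a stem-loop had the stem of Hist1h4f, in 4 genes with the loop shown and in 2 genes with a loop that differed at 1 base. In the other 13 genes the annotated transcript held no match, which says only that the annotated sequence does not contain it. For Hist1h2ap and Hist2h2aa2 the stem-loop lay at or beyond the end of the gene as deposited.

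In RPKM, which divides reads by gene length and library size so that levels of different genes can be compared, 30 of the 33 genes lay between 33.5 and 412 in WT as means of 3 cultures. Hist1h2bl was the highest, at 412 ± 26.3 RPKM (SD, n = 3) in WT and 565 ± 66.3 in Nipbl+/- MEFs. The H4 gene Hist1h4k followed, at 356 ± 32.3 and 486 ± 11.1. At the other end stood Hist2h4, Hist4h4 and the pseudogene Hist3h2bb-ps, at 7.45, 6.70 and 0.186 RPKM in WT. Hist2h4 and Hist4h4 are also the H4 genes with almost no shared stretches. This order depends on the gene length used, which counts and RPKM imply to be 394 bases for Hist1h2bl. Hist1h2bq and Hist1h2be had more counts, at 196 and 177 CPM in WT against 165. With implied lengths of 2292 and 4523 bases they stood at only 83.8 and 38.4 RPKM. Hist2h4 and Hist4h4, at 12.6 and 20.3 CPM in WT, had implied lengths of 1663 and 2977 bases. In H3, Hist1h3i was the highest at 154 RPKM in WT, followed by Hist1h3a at 113 and Hist1h3c at 107. Neighbours in this order mostly lay within each other's spread, as Hist1h4c at 268 ± 21.4 and Hist1h4a at 264 ± 23.0 did. The testis histone gene Hist1h2ba stood at 174 RPKM in WT, and shared 38.2% of its stretches with other H2B genes.

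**Figure D2:**
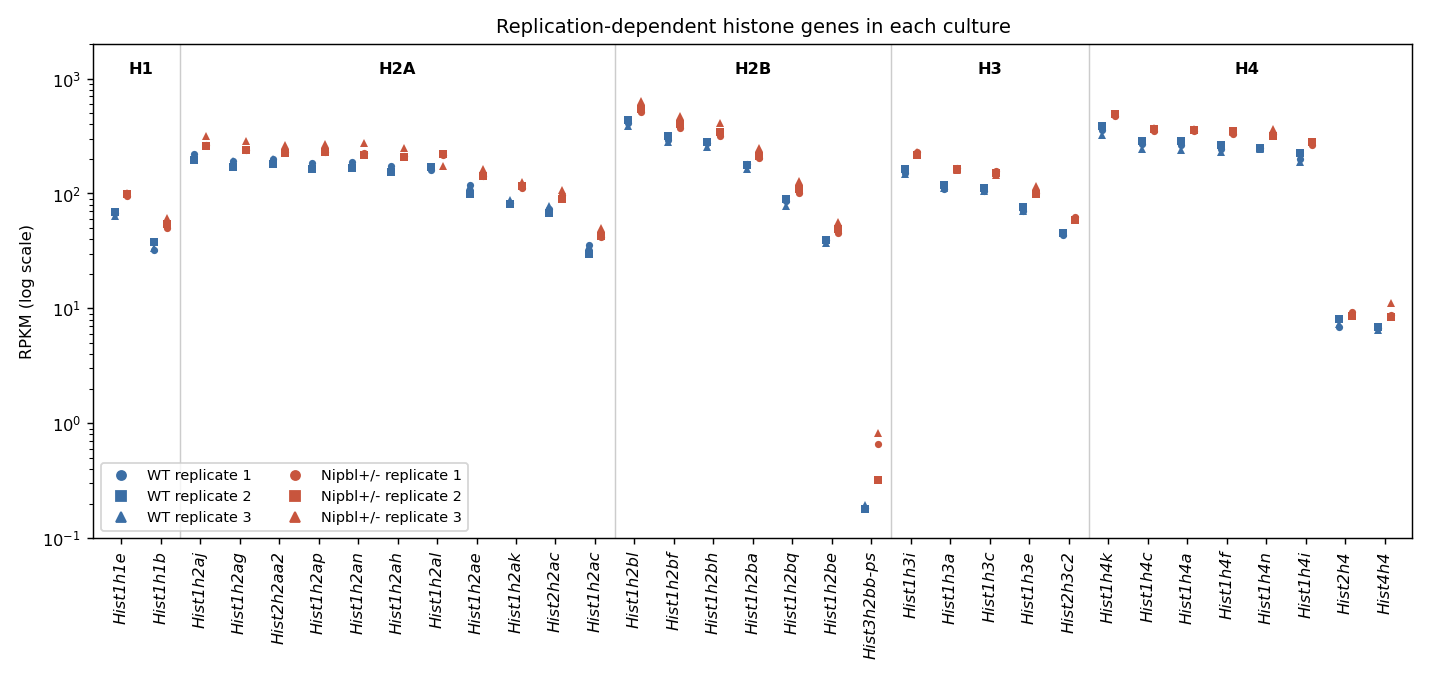
RPKM (log scale) of each of the 33 histone genes in each of the 6 cultures, grouped by histone type and ordered by mean level, with WT in blue, Nipbl+/- in red and 1 marker shape per replicate number. In each of the 33 genes the 3 Nipbl+/- cultures sit above the 3 WT cultures in this unit, for which the share over all genes was not taken. In CPM this held for 31 of 32 tested histone genes, against 12.0% of all tested genes. Hist3h2bb-ps, Hist2h4 and Hist4h4 lie far below the rest.

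Many histone genes were higher in Nipbl+/- than in WT MEFs, by factors of 1.30 to 1.54 among those that passed the test. Of the 33 genes, 32 had enough counts to be tested. Hist3h2bb-ps, an H2B pseudogene on chromosome 11, was kept out with 2, 2 and 2 counts in WT and 7, 4 and 8 in Nipbl+/- cultures. By the quasi-likelihood test of edgeR with Benjamini-Hochberg adjustment over all tested genes, 19 of 32 (59.4%) were higher and none was lower at an adjusted p under 0.05. Among all 9061 tested genes, 94 were higher, or 1.04%, and 83 were lower, against 142 and 70 when scaled by library size alone. At an unadjusted p under 0.05, 32 of 32 histone genes were higher, against 8.98% of all tested genes, and none was lower by exact test or DESeq2 either. In 31 of 32 genes the CPM of the 3 Nipbl+/- cultures lay above the 3 WT cultures, against 12.0% of all tested genes.

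The median log2 change (log2 of the Nipbl+/- level over the WT level) of the 32 genes was 0.39, a factor of 1.31, and the values ran from 0.23 to 0.62. The median over all tested genes was -0.01. In bulk RNA, a larger share of cells that express a gene and more RNA per expressing cell cannot be told apart. The 33 genes took 0.284%, 0.289% and 0.273% of the counts in WT replicates 1, 2 and 3, and 0.362%, 0.370% and 0.413% in the Nipbl+/- replicates. A read counted for several copies would enter these shares several times. The range in WT did not overlap that in Nipbl+/- cultures. The histone genes summed to 2931, 2953 and 2701 CPM in WT replicates 1, 2 and 3. In Nipbl+/- replicates 1, 2 and 3 they summed to 3619, 3677 and 4002 CPM. Xist was counted more often than Ddx3y in WT replicate 3 and in Nipbl+/- replicates 1 and 2. Because the groups did not overlap, a split by Xist and Ddx3y keeps their order in any case. Such a split also leaves 1 culture on one side. The macrophage markers, like the histone genes, summed higher in every Nipbl+/- culture than in every WT culture. The part of these markers, or of the Xist and Ddx3y difference, in the result was not tested.

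The number of calls depended on single cultures. Without WT replicate 1, Nipbl+/- replicate 1 or Nipbl+/- replicate 2, no histone gene passed edgeR's quasi-likelihood test, while 30 of 32 kept an unadjusted p under 0.05 in each case. In those fits only 2, 1 and 3 genes of all tested were called higher. The share of all tested genes higher at an unadjusted p under 0.05 was 8.98% with all 6 cultures. It was not taken for the fits with a culture left out. There were 16 histone calls without WT replicate 2, 7 without WT replicate 3 and 8 without Nipbl+/- replicate 3. The log2 change of all 32 genes stayed above 0 in each of the 6 fits, and their median stayed between 0.34 and 0.42.

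**Figure D3:**
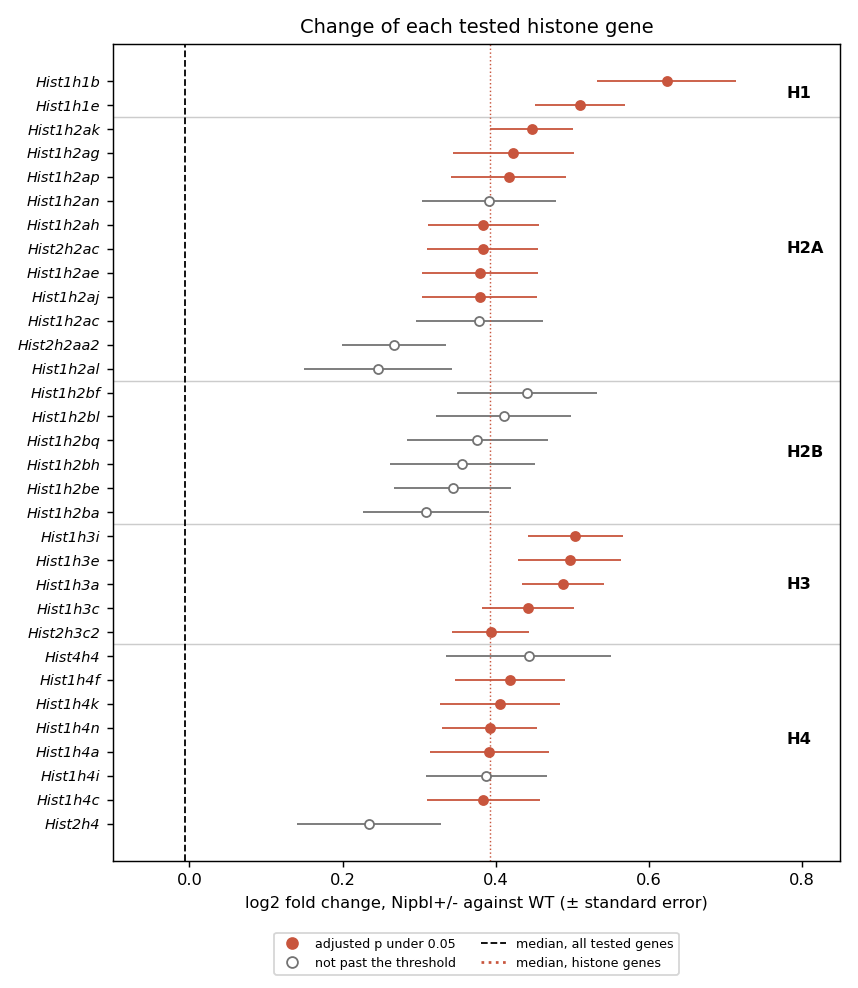
Log2 fold change of each tested histone gene, Nipbl+/- against WT, with its standard error as a horizontal bar, by histone type, filled where the adjusted p was under 0.05. All 32 points lie to the right of the median of all tested genes (dashed line, -0.01) and spread around the histone median of 0.39 (dotted line).

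The 2 linker histone H1 genes had the highest log2 changes. That of Hist1h1e lay within its standard error of that of the H3 gene Hist1h3i, at 0.50. A difference between H1 and the other types was not tested. Hist1h1b (ENSMUSG00000058773, chr13:21779883-21780625) stood at 25.6, 30.0 and 25.7 CPM in the WT replicates and at 38.3, 41.5 and 45.5 in the Nipbl+/- replicates. Every Nipbl+/- culture lay above every WT culture, and the log2 change of 0.62 (standard error 0.09, edgeR quasi-likelihood adjusted p = 0.0232) was the highest of the family. No stretch of its transcript occurs in another of the histone genes compared, while other sequences were not searched. Hist1h1e (chr13:23621755-23622502) stood at 54.1, 54.9 and 48.2 CPM in WT and at 73.4, 75.3 and 75.2 in Nipbl+/- cultures. Here too the groups did not overlap, with a log2 change of 0.51 (standard error 0.06, adjusted p = 0.0176). Of its stretches 22.2% occur in other H1 genes, most of them in Hist1h1d.

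The promoters of both genes hold 3 short motifs of this gene class. The 200 bases before the RefSeq start are printed below from GRCm38.p6, in the direction of the gene, with AAACACA (the H1 box), CCAAT and TATAAA in capitals on either strand. A CCAAT on the opposite strand reads as ATTGG. In both promoters an H1 box is followed by CCAAT and then by TATAAA, and Hist1h1b has further CCAAT matches before and after its H1 box.

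Hist1h1b, chr13:21780626-21780825: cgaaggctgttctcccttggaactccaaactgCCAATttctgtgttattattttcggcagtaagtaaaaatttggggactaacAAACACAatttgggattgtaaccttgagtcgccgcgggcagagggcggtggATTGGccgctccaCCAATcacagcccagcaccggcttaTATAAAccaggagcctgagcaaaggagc
Hist1h1e, chr13:23622559-23622758: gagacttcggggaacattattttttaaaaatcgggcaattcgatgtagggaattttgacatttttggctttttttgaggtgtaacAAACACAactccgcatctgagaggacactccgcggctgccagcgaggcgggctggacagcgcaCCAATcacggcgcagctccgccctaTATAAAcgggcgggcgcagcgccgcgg

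A RefSeq promoter of 300 bases was found for 28 of the 33 genes. AAACACA occurred on either strand in both H1 promoters, in 1 of 6 H2B promoters and in none of the H2A, H3 or H4 promoters, against 7.18% of all 32851 promoters of that length. CCAAT occurred in 23 of 28, including all H1, H2A, H2B and H3 promoters but only 2 of 7 H4 promoters, against 37.4% of all. TATAAA occurred in 16 of 28 against 13.6%, and the octamer ATTTGCAT in 5 of 28 against 1.74%. The octamer was found in 4 of 9 H2A promoters and in the H2B gene Hist1h2ba. Neighbouring histone genes can share a window, and a match is a description of the letters and not of a bound site.

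All 5 H3 genes were higher. Hist1h3i (chr13:21782915-21783397), the H3 gene with the highest RPKM, stood at 77.6, 84.3 and 73.2 CPM in WT and at 114, 108 and 112 in Nipbl+/- cultures. The groups were separated by more than the range within either, and the log2 change was 0.50 (standard error 0.06, edgeR quasi-likelihood adjusted p = 0.0176). Hist1h3a (chr13:23761853-23762386) stood at 62.4, 67.4 and 60.9 CPM in WT and at 91.7, 89.2 and 86.5 in Nipbl+/- cultures, with a log2 change of 0.49 and the lowest adjusted p of the family, 0.0155. Hist1h3e and Hist1h3c changed by 0.50 and 0.44 on the log2 scale (both adjusted p = 0.0213). The 4 genes of the cluster on chromosome 13 share between 41.2% and 87.6% of their stretches with other H3 genes, so they are not 4 independent measurements. Hist2h3c2 lies on chromosome 3 (chr3:96238110-96239127) and stood apart from them, sharing only 7.0% of its stretches with other minus-strand genes, although 63.7% with its plus-strand copy Hist2h3c1. It stood at 46.9, 49.2 and 47.0 CPM in WT and at 64.9, 61.5 and 61.6 in Nipbl+/- cultures, again without overlap, with a log2 change of 0.39 (standard error 0.05, adjusted p = 0.0190).

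Of the 11 H2A genes, 7 were higher and 4 did not pass. Hist1h2ak (chr13:21753395-21753907) had the highest fold change, at 45.6, 44.3 and 46.2 CPM in WT and 59.3, 61.1 and 65.2 in Nipbl+/- cultures. The WT cultures lay within 2 CPM of each other and below all Nipbl+/- cultures, and the log2 change was 0.45 (standard error 0.05, edgeR quasi-likelihood adjusted p = 0.0176). The others called higher were Hist1h2ag at 0.42 (adjusted p = 0.0413), Hist1h2ap at 0.42 (0.0375), Hist1h2ah at 0.38 (0.0422), Hist2h2ac of chromosome 3 at 0.38 (0.0424), Hist1h2ae at 0.38 (0.0494) and Hist1h2aj at 0.38 (0.0469). Hist1h2aj, annotated as a pseudogene in GENCODE M21, had the highest RPKM of the H2A genes, at 209 ± 12.3 (SD, n = 3) in WT. It shares 93.1% of its stretches with Hist1h2ai, so this level may be that of its copies. Its span also overlaps the plus-strand gene Hist1h2bm, and the library kit does not mark strand.

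Among the H2A genes that did not pass, Hist1h2an had a log2 change of 0.39 (adjusted p = 0.0656) and Hist1h2ac of 0.38 (0.0621), as large as those of the genes that did. Hist2h2aa2 stood at 114, 103 and 110.3 CPM in WT and at 129, 123 and 142 in Nipbl+/- cultures, with a log2 change of 0.27 (adjusted p = 0.0920). Its groups did not overlap, and only Hist1h2al and Hist2h4 changed less. Hist1h2al was the exception of the family. It stood at 65.2, 68.8 and 65.1 CPM in WT and at 84.96 and 85.42 in Nipbl+/- replicates 1 and 2, but at 65.6 in replicate 3. In CPM, Nipbl+/- replicate 3 was thus inside the WT range here, and in RPKM, at 173, it was just above the highest WT culture at 171, while it was the highest culture for the other H2A genes. The log2 change was 0.25 (standard error 0.10, adjusted p = 0.253), and without Nipbl+/- replicate 3 it was 0.36 (adjusted p = 0.0403). Hist1h2al lies at chr13:51202688-51203065, outside the main cluster, and GENCODE M21 annotates it as a processed pseudogene. It shares 67.6% of its stretches with other H2A genes, 65.5% with Hist2h2aa1 of chromosome 3.

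None of the 6 tested H2B genes passed edgeR's quasi-likelihood test, although all 6 had an unadjusted p under 0.05 and their log2 changes, 0.31 to 0.44, were like those of H2A. The exact test called 4 of the 6 higher, and DESeq2 all 6. Hist1h2bl (chr13:21715763-21716143), the gene with the highest RPKM of the family, stood at 167, 177 and 150.1 CPM in WT and at 200.3, 213 and 244 in Nipbl+/- cultures. Every Nipbl+/- culture lay above every WT culture, but they spanned a wide range, and the log2 change was 0.41 (standard error 0.09, adjusted p = 0.0579). Hist1h2bf was similar, at 0.44 (adjusted p = 0.0539). Hist1h2bq, Hist1h2be, Hist1h2bh and Hist1h2ba followed at 0.38, 0.34, 0.36 and 0.31, with adjusted p-values between 0.0651 and 0.103. The median standard error was 0.09 in H2B, 0.08 in H2A and 0.06 in H3. In each of the 6 H2B genes WT replicate 3 was the lowest WT culture and Nipbl+/- replicate 3 the highest Nipbl+/- culture. A difference between H2B and the other types in the change itself was not tested.

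Of the 8 H4 genes, 5 were higher. Hist1h4k (chr13:21750194-21750505) stood at 118, 129 and 103 CPM in WT and at 152, 157 and 155 in Nipbl+/- cultures. The Nipbl+/- cultures lay close together above a wider WT range, and the log2 change was 0.41 (standard error 0.08, edgeR quasi-likelihood adjusted p = 0.0443). Hist1h4f at 0.42 (adjusted p = 0.0323), Hist1h4n at 0.39 (0.0261), Hist1h4a at 0.39 (0.0469) and Hist1h4c at 0.38 (0.0440) were also called, and Hist1h4i at 0.39 (0.0511) missed the threshold narrowly. Outside this group of shared sequence, Hist4h4 on chromosome 6 (chr6:136801553-136804431) stood at 20.7, 21.2 and 18.9 CPM in WT and at 26.0, 24.7 and 32.1 in Nipbl+/- cultures. None of its stretches occurs in another of the histone genes compared, and its groups did not overlap. The log2 change of 0.44 had a standard error of 0.11 and did not pass (edgeR quasi-likelihood adjusted p = 0.0815). Hist2h4 on chromosome 3 (chr3:96261704-96263311) stood at 11.9, 13.7 and 12.1 CPM in WT and at 15.3, 14.3 and 14.8 in Nipbl+/- cultures. Its log2 change of 0.23 (adjusted p = 0.261) was the lowest of the family.

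All minus-strand genes of a type were also summed in each culture, which leaves out the plus-strand copies. If each read was given to a single gene, a sum does not depend on how reads were divided among these genes. If a read was counted for every copy it matches, it enters the sum several times, which weighs types with many copies more. Which of these held was not given. H1 summed to 79.5 ± 5.53 CPM (SD, n = 3) in WT and 116 ± 4.47 in Nipbl+/- MEFs, a factor of 1.46. H3 summed to 324 ± 17.7 and 449 ± 10.4, a factor of 1.39. H4 summed to 714 ± 64.7 and 939.6 ± 16.1, a factor of 1.32. H2B summed to 876 ± 67.5 and 1139.5 ± 120.1, a factor of 1.30, and H2A to 867 ± 46.9 and 1121 ± 74.5, a factor of 1.29. In each of the 5 types the 3 Nipbl+/- cultures lay above the 3 WT cultures, and these sums are given as a description without a test. The makeup of the histone counts by type differed little, with H2B at 29.7% to 31.5% in WT and 28.7% to 31.8% in Nipbl+/- cultures. H1 made up 2.72% to 2.88% in WT and 3.01% to 3.18% in Nipbl+/- cultures, and was the only type whose shares did not overlap.

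**Figure D4:**
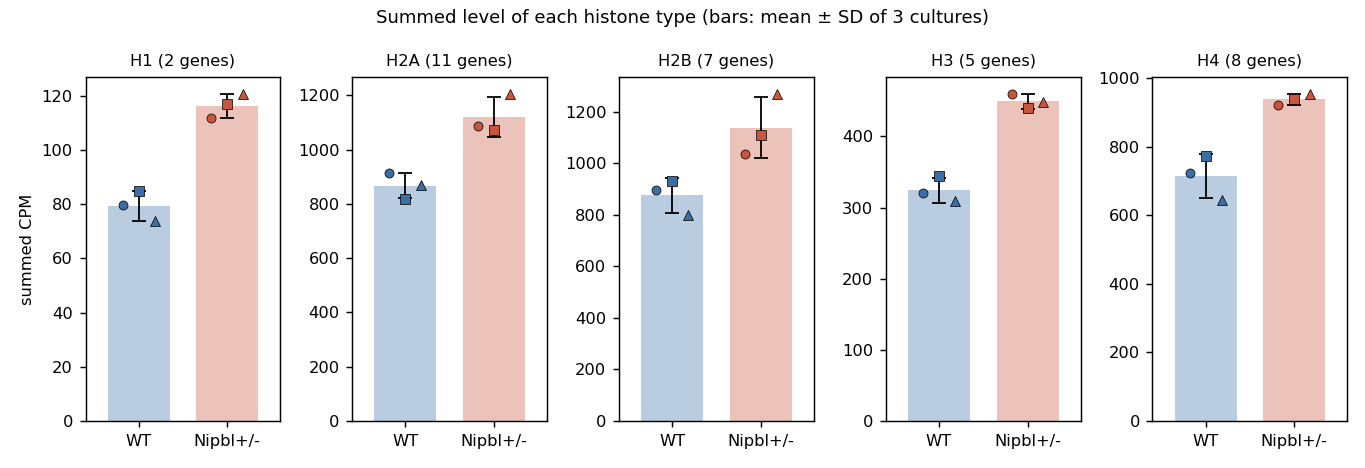
Summed CPM of the genes of each histone type, with bars for the mean and error bars for the SD of 3 WT (blue) and 3 Nipbl+/- (red) cultures and a point per culture (circle, square and triangle for replicates 1, 2 and 3). The points of the 2 groups are separate in every type, and the H2A and H2B points of Nipbl+/- replicate 3 lie highest.

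The cultures were ordered differently in different types. WT replicate 2 was the lowest WT culture for 10 of 11 H2A genes, but the highest WT culture for 5 of 6 H2B, 5 of 5 H3 and 7 of 8 H4 genes. Nipbl+/- replicate 3 was the highest of its group for 10 of 11 H2A and 6 of 6 H2B genes, but for 1 of 5 H3 and 3 of 8 H4 genes. Most genes of a type share sequence, so they are not independent measurements of this order.

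With the counts of each sequence group summed to 1 row before the fit, 9 rows were tested in place of 32 genes, and 6 of them were higher and none lower. This fit was chosen after seeing the data. The 11 H2A genes together had a log2 change of 0.37 (standard error 0.06, edgeR quasi-likelihood adjusted p = 0.0319). The 6 H4 genes together changed by 0.40 (adjusted p = 0.0319), and the 4 H3 genes of chromosome 13 by 0.48 (0.0181). The 6 H2B genes together changed by 0.38 with a standard error of 0.08 and did not pass (0.0676). Among the 5 single genes, Hist1h1b, Hist1h1e and Hist2h3c2 passed, and Hist2h4 and Hist4h4 did not. Thus 6 of 9 sequence groups, on chromosomes 13 and 3, held a histone signal past the threshold.

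By position, 26 of the 27 genes of chromosome 13 lie in the main cluster, between the starts of Hist1h2bl at 21715763 and Hist1h2ba at 23933768. Of these 26, 17 were higher, with a median log2 change of 0.40. On chromosome 3, Hist2h3c2 and Hist2h2ac were higher and Hist2h2aa2 and Hist2h4 did not pass, with a median of 0.32. Chromosome 6 held only Hist4h4. With 4 genes or fewer outside chromosome 13, a difference between clusters was not tested. The deposited spans of 4 of the 33 genes overlapped another listed gene, 2 of them on the same strand. The Hist1h2be gene spans 37383 bases and overlapped the minus-strand gene Gm11398, and Hist1h2ac overlapped Gm24991. On the plus strand, Hist1h2bm overlapped Hist1h2aj and Gm20632 overlapped Hist2h2aa2. The library kit does not mark strand, so reads from overlapping parts cannot be assigned to a strand.

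Genes that work with these histones were described from lists drawn up by function. Of all tested genes, 1.04% were higher by edgeR's quasi-likelihood test, and 8.98% were higher at its unadjusted p under 0.05. Replacement histones are made throughout the cell cycle from mRNAs with a poly(A) tail. Of 8 tested replacement histone genes, 1 was higher, none was lower, and the median log2 change was 0.18. The H3.3 gene H3f3a stood at 428, 392 and 437 CPM in WT and at 415, 421 and 424 in Nipbl+/- cultures, overlapping between groups, and its log2 change of 0.00 changed sign with the scaling. H3f3b, which encodes the same protein, changed by 0.17 (adjusted p = 0.107), H2afy by 0.19 (0.0940) and H3f3c by -0.04 (0.764). The one called was H2afy2, which encodes a macroH2A, at 22.4, 20.3 and 25.9 CPM in WT and at 34.6, 33.1 and 36.4 in Nipbl+/- cultures. Its groups did not overlap, with a log2 change of 0.60 (standard error 0.10, edgeR quasi-likelihood adjusted p = 0.0263).

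The factors that transcribe and process histone mRNA were measured for 16 genes of the minus strand. Their median log2 change was 0.04, and by edgeR's quasi-likelihood test 1 gene was higher and none lower. This was Cdk2, the S-phase kinase that activates histone transcription, at 0.33 (adjusted p = 0.0469), and DESeq2 and the exact test each called 2 genes higher. Slbp itself changed by 0.06. The listed genes with the highest RPKM, Ybx1, Snrpb, Snrpe and Snrpf, changed by between -0.04 and 0.09, with adjusted p-values of 0.446 to 0.921. The U7 RNA gene Rnu7 was not tested. Of 12 histone chaperone genes, which carry histones to DNA, edgeR's quasi-likelihood test called none in either direction, 4 had an unadjusted p under 0.05, all higher, and DESeq2 called none. The highest by RPKM, Npm1, Nap1l4, Supt16 and Ncl, changed by 0.06, 0.08, 0.12 and 0.03, and the median was 0.09.

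Of 35 tested S-phase and licensing genes, 3 (8.57%) were higher by edgeR's quasi-likelihood test, against 1.04% of all tested genes, and none was lower. Their median log2 change was 0.27. At an unadjusted p under 0.05, 24 were higher, against 8.98% of all tested genes, and 1 was lower. In 25 genes the Nipbl+/- cultures lay above all WT cultures, against 12.0% of all tested genes. DESeq2 called 14 higher and none lower. The log2 change was above 0 for 33 of the 35, against 4386 of all 9061 tested genes. It was below 0 for Slc29a1 at -0.16 (edgeR quasi-likelihood adjusted p = 0.276) and Tyms at -0.02 (0.877), which were named after their values were seen. The 3 genes called higher were Mcm6 at 0.45 (edgeR quasi-likelihood adjusted p = 0.0283), Mcm7 at 0.31 (0.0291) and Mcm10 at 0.52 (0.0459). Pcna, the sliding clamp of the replication fork, stood at 88.6, 86.4 and 88.2 CPM in WT and at 103, 106 and 99.4 in Nipbl+/- cultures. Its groups did not overlap, but with a log2 change of 0.23 it did not pass (adjusted p = 0.0559). Rpa1 at 0.25 (0.160) and Gins4 at 0.06 (0.668) did not pass either. No gene of the list passed without WT replicate 1, WT replicate 3, Nipbl+/- replicate 1 or Nipbl+/- replicate 2, 1 passed without Nipbl+/- replicate 3, and 3 without WT replicate 2.

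Of 21 tested mitosis genes, 12 (57.1%) were higher by edgeR's quasi-likelihood test, against 1.04% of all tested genes, and none was lower. Their median log2 change was 0.40. In all 21 the Nipbl+/- cultures lay above all WT cultures, against 12.0% of all tested genes. Among the 12 were the cyclin Ccna2 at 0.44 (edgeR quasi-likelihood adjusted p = 0.0213), the topoisomerase Top2a at 0.45 (0.0246), the proliferation marker Mki67 at 0.52 (0.0311) and the kinase Cdk1 at 0.38 (0.0469). The kinesin genes Kif23 and Kif2c changed by 0.59 (0.0234) and 0.42 (0.0283), the cytokinesis genes Anln and Ect2 by 0.41 (0.0323) and 0.35 (0.0234), and the cyclin Ccnb2 by 0.42 (0.0330). Bub1, Dlgap5 and Hmmr, which act at the spindle, changed by 0.44 (0.0328), 0.39 (0.0366) and 0.30 (0.0422). Cdc20, with the highest RPKM of the list, changed by 0.41 and missed the threshold narrowly (0.0501). As with the histone genes, the number of calls depended on single cultures. None of the 21 passed without WT replicate 1, Nipbl+/- replicate 1 or Nipbl+/- replicate 2, 1 passed without Nipbl+/- replicate 3, 2 without WT replicate 3 and 15 without WT replicate 2. In the fits with no call, 20, 20 and 21 of the 21 genes were higher at an unadjusted p under 0.05. The share of all tested genes at that cutoff was not taken in these fits. The part of a difference in cell cycle in the histone result was not tested, and these transcripts are the only measure of the cell cycle in the files.

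Of 13 cell cycle arrest genes none passed edgeR's quasi-likelihood test, with 2 higher and 3 lower at an unadjusted p under 0.05, and DESeq2 called 1 higher and 2 lower. The inhibitor gene Cdkn2a stood at 154, 127 and 142 CPM in WT and at 97.0, 115 and 93.1 in Nipbl+/- cultures, with a log2 change of -0.47 (adjusted p = 0.0536). Its neighbour Cdkn2b changed by -0.35 (0.0870), Ccng1 by -0.11 (0.307) and Mdm2 by -0.16 (0.162).

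**Figure D5:**
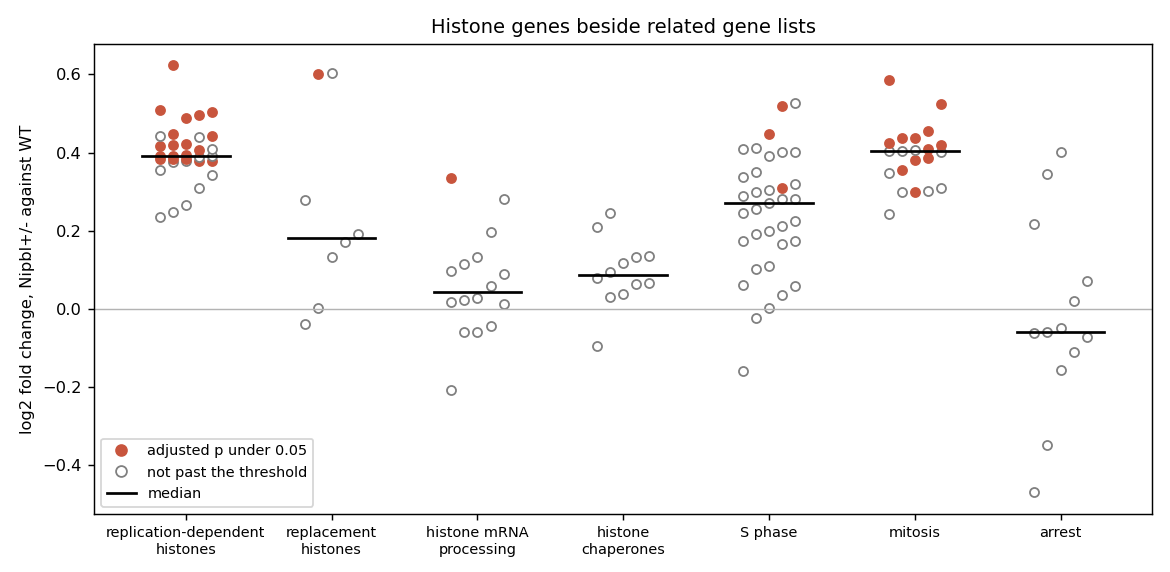
Log2 fold change of each tested gene, Nipbl+/- against WT, in the replication-dependent histones and 6 related lists, filled where the adjusted p was under 0.05, with a black line at each list's median. The medians of the histone genes (0.39) and mitosis genes (0.40) stand highest, those of histone mRNA processing (0.04) and arrest genes (-0.06) near 0.

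Of 9 tested genes for other RNAs without a poly(A) tail none was called higher. Rn7sk, which holds back a transcription elongation factor, stood at 14923, 14524 and 13720 CPM in WT and at 15176, 15151 and 13654 in Nipbl+/- cultures. The groups overlapped, and the log2 change of 0.03 had an adjusted p of 0.853. The RNase RNA genes Rpph1 and Rmrp changed by -0.19 (adjusted p = 0.513) and -0.27 (0.129). Malat1, a nuclear RNA whose end is not a poly(A) tail, fell from 15421, 13534 and 14147 CPM in WT to 10849, 8507 and 9341 CPM in Nipbl+/- cultures, with a log2 change of -0.59 (edgeR quasi-likelihood adjusted p = 0.0234). Malat1 was the 1 gene of the list called lower, 3 were lower at an unadjusted p under 0.05, and DESeq2 called 2 lower and none higher. Their median log2 change was -0.19, beside 0.39 for the histone genes.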

How the data were processed

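The authors depleted total RNA of rRNA, made libraries with a kit that does not mark strand, and aligned reads to mm10 with TopHat2 2.0.10 (submitters' processing notes) and Ensembl gene annotation. The tool that counted reads, and how it treated reads matching several genes, is not given in the sources used here. The authors deposited raw read counts per gene for each culture, and RPKM values beside the counts, scaled for gene length and library size. Both units were used as deposited, counts for tests and RPKM to compare genes. Between replicates of 1 genotype, chi-square over its degrees of freedom was 9.6 to 32.5, so none was a repeat of another library.

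Genes with enough counts (filterByExpr, minimum count 10) were scaled by TMM. Nipbl+/- was compared with WT, without covariates, by edgeR's quasi-likelihood test (version 4.0.16, R version 4.3.3), with Benjamini-Hochberg adjustment over all 9061 tested genes at 0.05. CPM are TMM-normalized. Standard errors were taken from the log2 change and the F statistic (size over root F). The alternatives tried were DESeq2 1.42.0, the exact test and the likelihood ratio test in edgeR, other scalings and filters, leaving out single cultures, a block for the replicate number and, chosen after seeing the data, near-identical copies summed. Scripts were tested on simulated data.

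Stretches of 50 bases came from GENCODE M21 transcripts (GRCm38), restricted to the deposited gene span, and stem-loops from the whole transcripts. All 33 genes matched, by identifier or, for 3 of them, by symbol. Promoters came from RefSeq (GRCm38.p6), 250 bases before to 50 after the start.

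Named with values were the histone genes past the threshold, the 3 highest by RPKM in each type, the 3 highest and lowest fold changes, Nipbl and, of each list, the genes past the threshold and up to 4 highest by RPKM. The members and lists were chosen with earlier results of these data known.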

Additional observations from a re-analysis of the deposited data

How the results depend on the processing

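Counts of calls depended on the test. Histone genes called higher were 19 by the quasi-likelihood test, 30 by DESeq2, 8 with the replicate number as a block and 6 of 9 rows with near-identical copies summed. Among all tested genes, 94 were higher and 83 lower, against 237 and 212 by DESeq2, 219 and 213 by edgeR's exact test, 224 and 218 by its likelihood ratio test, and 173 and 152 with no filter on low counts. With library size alone 142 were higher and 70 lower, with 23 histone genes higher (14 with upper-quartile scaling), and the median of all genes moved to 0.03. With the block 34 were higher and 52 lower. Leaving out each culture in turn gave 0 to 16 histone genes higher, 1 to 130 genes of all higher and 2 to 138 lower. No histone gene was called lower, and none of the 32 changed sign, under any alternative. Their median log2 change stayed between 0.34 and 0.43, and the summed level of each type moved by less than its spread between replicates.

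Samples with the same replicate number did not deviate together (correlations of -0.09, -0.05 and -0.21), so the numbers were not taken as pairs. Different numbers reached 0.18, and no sample correlated best with its own number. WT and Nipbl+/- cultures alike in which of Xist and Ddx3y was counted more often correlated at 0.183, 0.0826, 0.114 and 0.138. Those unlike in this correlated at between -0.21 and -0.0478. The model held no term for this difference, and its part in the spread was not tested.

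Among the genes followed singly under each alternative, 8 reversed sign, none of them a histone gene. With upper-quartile scaling H3f3a was at -0.0077, and with library size alone Kdr and Tie1 were at 0.0237 and 0.0231. With a culture left out, H3f3a ranged from -0.0439 to 0.0342, Kdr from -0.120 to 0.151, Tie1 from -0.128 to 0.210, Ncl from -0.0101 to 0.104, Rn7sk from -0.0068 to 0.0754, Snrpe from -0.114 to 0.0012, Snrpf from -0.0171 to 0.0458 and Ybx1 from -0.0106 to 0.0457.

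Each tested histone gene had at least 261 counts in each culture, and 3 cultures a group also limit the precision. The cause of the changes in the counts of calls was not tested.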
